A study of Caenorhabditis elegans with 4 samples.

Results

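On chromosome X, 542 peaks of the nuclear hormone receptor NHR-76 were listed, out of 3635 on all chromosomes. They were taken from the combined peak list by chromosome name alone, with no cut on q-value or width. The replicate 1 list held 241 X peaks of 1562, and the replicate 2 list held 555 of 3676. The binding sites were mapped by chromatin immunoprecipitation and sequencing (ChIP-seq) in L4 larvae of Caenorhabditis elegans, hermaphrodites of the strain OP203 grown at 20 °C. Every sample carried the mutation unc-119(ed3) and the transgene wgIs203, which expresses NHR-76 with a TY1, EGFP and FLAG tag and an unc-119 rescue. The transgene was introduced by bombardment, and the genotype lists no mutation of the worms' own nhr-76 gene. There were 2 ChIP samples, precipitated with a goat antibody against GFP, and 2 input samples of total chromatin DNA. All 4 samples were treated with 2% formaldehyde. No untagged strain and no second stage were among the 4 samples, so nothing here is a change in binding. Peaks were called with PeakSeq on build WormBase WS180, per the file headers, and each has a position and a q-value, the false discovery rate at which it is called. No read counts accompany the peaks, so depth is unknown. Per the labels, nothing states whether the replicates were separate cultures.

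NHR-76 belongs to the nuclear hormone receptors, transcription factors that bind DNA through a zinc-finger domain and can be regulated by small lipophilic ligands. The family is greatly expanded in nematodes, and nhr-76 is known from work on serotonin signalling and fat loss in the worm intestine. The X chromosome has its own regulation in this species. Hermaphrodites carry a pair of X chromosomes and males a single one, and a condensin-based dosage compensation complex lowers transcription from both X chromosomes in somatic cells of hermaphrodites. X is also poor in germline-expressed genes and largely silent through much of germline development. The nhr-76 gene is on chromosome IV and unc-119 on III in the gene table of assembly WBcel235, so neither of the genes placed in the transgene is an X gene. No sequence or gene annotation of WS180 was used here, and the X peaks are therefore named by position.

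The top of the list was rich in X sites. All 5 of the strongest peaks of replicate 1 were on X, and so were 7 of its strongest 10. In the combined list 4 of the strongest 10 were on X. Among the 50 strongest peaks, 17 were on X in replicate 1 (34.0%, 95% Wilson interval 22.4 to 47.8) and 17 in the combined list. No autosome held more than 22.0% of the 50 strongest in replicate 1 or more than 20.0% in the combined list. Of the 17 X peaks among the 50 strongest of replicate 2, 16 overlapped one of the 17 of replicate 1. Intervals for shares cover counting error only.

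The X share shrank down the list. X held 22.0% of the 100 strongest combined peaks, 17.2% of the 500 strongest and 14.9% of all. In replicate 1 the shares were 21.0% of the 100 strongest, 17.2% of the 500 strongest and 15.4% of all. The median −log10 q of the whole set was 5.57 on X, inside the range of 5.30 to 5.58 over the 5 autosomes in the combined list. In replicate 1 it was 5.49 on X, above the autosomal range of 4.83 to 5.45 (two-sided exact permutation test over 6 chromosomes, p = 0.333). With chromosomes as the units, X against 5 autosomes cannot give an exact permutation p under 0.167. The share of the 50 strongest reached that smallest value (two-sided exact permutation test over 6 chromosomes, p = 0.167 in replicate 1 and in the combined list). The same test was run on 12 quantities in the combined list and 11 in replicate 1. Its smallest adjusted p was 0.25 in the combined list and 0.262 in replicate 1 (exact permutation tests, Benjamini-Hochberg), so no difference between X and the autosomes given here passes a test.

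**Figure D1:**
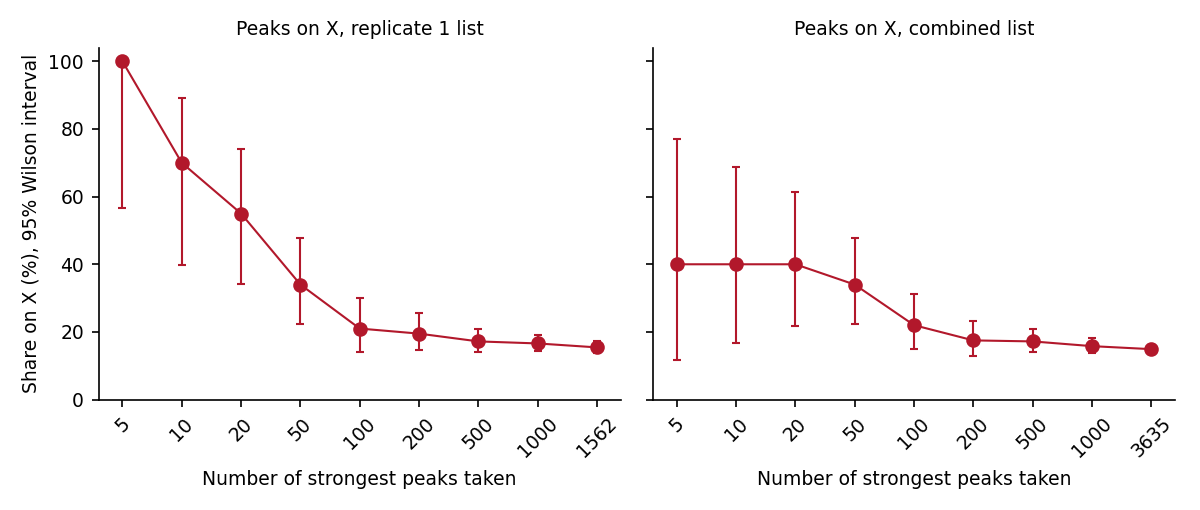
The share of peaks that lie on X (vertical axis, percent, with 95% Wilson intervals) among the strongest peaks of a list (horizontal axis, number taken, unevenly spaced), for replicate 1 on the left and the combined list on the right. The share was 34.0% among the 50 strongest in each list and 15.4% and 14.9% over the whole replicate 1 and combined lists.

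The site of smallest q in every list was on X at 16929252 to 16931864. In replicate 1 its q-value was 2.72e-101 over a peak of 2539 bp. In replicate 2 it was 3.22e-160 over 2613 bp. It was also the widest X peak of the combined list. Its strength was far from that of the next X site, at 14525328 to 14526380, where q was 1.40e-46 in replicate 1 and q was 6.81e-81 in replicate 2.

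The 20 strongest X peaks found in both replicates were spread over the whole chromosome, with 7 in the left, 6 in the central and 7 in the right one of 3 equal segments. In the left segment the strongest was at 2996364 to 2997494, where q was 1.05e-42 in replicate 1 and q was 3.01e-74 in replicate 2. A group of 4 more of the 20 lay close together, at 1344673 to 1345480, 1389052 to 1390111, 1503261 to 1505143 and 1626554 to 1627505. The second of these ranked 3 among all replicate 1 peaks, where q was 7.09e-44, and had q = 5.06e-70 in replicate 2. The other 2 left-segment sites were at 4208214 to 4209685 and 806424 to 807055, the weakest of the 20 in the combined list with a q-value of 8.14e-33. The stretch holding the group of 4 was followed by one of the longest peak-free stretches of X, from 1627506 to 1880732.

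In the central segment the strongest site was at 11093647 to 11094598, where q was 7.45e-40 in replicate 1 and q was 6.17e-75 in replicate 2. Sites at 6296058 to 6296905, 8035699 to 8036929 and 9465470 to 9466281 ranked 10, 17 and 31 in replicate 1 and 18, 24 and 29 in replicate 2. The remaining pair, at 6742778 to 6744868 and 6748970 to 6750566, were the only ones of the 20 covered by more than 1 replicate 1 peak. The first of the pair was outlined differently in each list. It was a single peak of 3806 bp in replicate 2, with a q-value of 1.10e-52, and was covered by 2 peaks in replicate 1, the stronger 1169 bp wide with a q-value of 1.69e-18. In the combined list it was 2091 bp wide and another peak lay 202 bp away, so the stretch called as 1 site differed between all 3 lists. The second was 1597 bp wide in the combined list, where q was 1.42e-35, and the stronger of its 2 replicate 1 peaks had q = 2.99e-12.

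The right segment held the 2 strongest X sites named above and 5 more of the 20. The sites at 16056119 to 16056834 and 13700366 to 13701105 were narrow for their strength, at 716 and 740 bp in the combined list. Their q-values were 1.85e-35 and 5.63e-35 in replicate 1, at ranks 12 and 13. The other 3 were at 12362669 to 12363615, 11937083 to 11937881 and 16681675 to 16682453, with q-values between 1.97e-31 and 2.58e-22 in replicate 1. Over the 20 sites the rank had a median of 16 in replicate 1, from 1 to 168, and a median of 25 in replicate 2, from 1 to 67.

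The strongest X sites were mostly isolated, and in the combined list they were also compact. Within the 50 strongest combined peaks, the 17 on X were 952 bp wide at the median and the 33 on autosomes 1652 bp, and the widest was 2613 bp on X and 10550 bp on autosomes. Only 1 of the 17 X peaks was covered by 2 or more replicate 1 peaks, against 11 of the 33 autosomal peaks. Another peak lay within 1000 bp of 3 of the 17 X peaks and of 16 of the 33 autosomal peaks. The width contrast was small in replicate 1, with medians of 890 bp for the 17 X peaks and 915 bp for the 33 autosomal peaks. Single autosomes had medians of 803 to 1901 bp there, so X lay inside their range. The isolation was present there too, since 0 of the 17 X peaks and 12 of the 33 autosomal peaks had a neighbour within 1000 bp. These contrasts within the 50 strongest were not tested.

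Over the whole list the relation was the other way, and X peaks were the wider ones. The median width on X was 369 bp in the combined list (95% binomial interval of the median 348 to 389), above the range of 278 to 302 bp over the 5 autosomes. In replicate 1 it was 429 bp (interval 383 to 469), above the autosomal range of 316 to 340 bp. Peaks of 800 bp or more made up 11.8% of X peaks (64 of 542, 95% Wilson interval 9.36 to 14.8), against 7.54% of all combined peaks. In replicate 1 they made up 14.5% of X peaks (35 of 241), against 8.77% of all. The test over chromosomes was at its smallest value for each (two-sided exact permutation test, p = 0.167). X peaks covered 1.40% of the X span between the outermost peaks, the same share as on the autosomes (1.40%), with fewer peaks per Mb (31.0 on X and 37.7 on autosomes). Single autosomes had 32.0 to 52.9 peaks per Mb (two-sided exact permutation test, p = 0.333). In replicate 1 the 13.8 peaks per Mb on X lay inside the autosomal range of 11.2 to 22.9.

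The extra width was present in every decile of strength, although not among the 50 or 100 strongest combined peaks. Among the 100 strongest combined peaks the median was 1003 bp on X and 1223 bp on autosomes. The 100 strongest of replicate 1 went the other way, with medians of 946 bp on X and 803 bp on autosomes. In each of the 10 deciles of q-value the median width was larger on X than on the autosomes, in the combined list as in replicate 1. The ratio of the medians lay between 1.13 and 1.38 in the combined list, with a median of 1.27, and between 1.07 and 1.5 in replicate 1, with a median of 1.22. In the strongest decile of combined peaks the median was 952 bp for 65 X peaks and 752 bp for 299 autosomal peaks. In the weakest it was 198 bp for 59 X peaks and 155 bp for 304 autosomal peaks. The widest X peaks after the strongest site were at 11791256 to 11793387, 17419459 to 17421550, 6742778 to 6744868 and 2970139 to 2972024, between 2132 and 1886 bp. X lay above each single autosome in 9 of 10 deciles of the combined list and 6 of 10 of replicate 1. Very narrow calls were fewer on X as well. Peaks under 50 bp were 5.35% of X peaks and 8.24% of autosomal peaks in the combined list, and 1 of 241 X peaks against 36 of 1321 autosomal peaks in replicate 1.

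**Figure D2:**
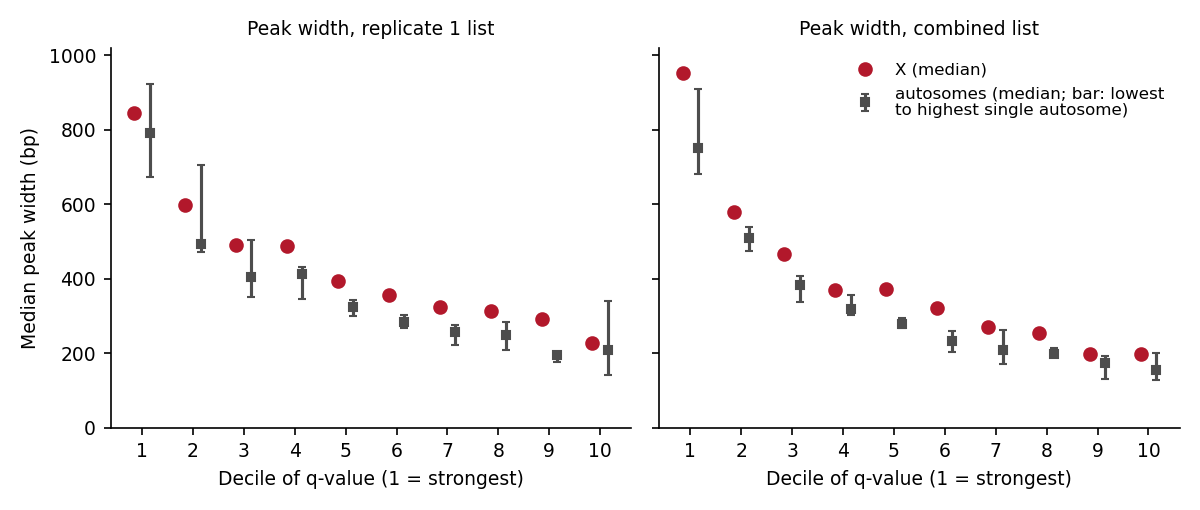
Median peak width (vertical axis, bp) by decile of q-value (horizontal axis, 1 is the strongest), for X (red circles) and the autosomes (grey squares, with bars from the lowest to the highest single autosome), in replicate 1 on the left and the combined list on the right. X was wider than the pooled autosomes in all 10 deciles of each list, by a ratio of 1.07 to 1.5 in replicate 1 and 1.13 to 1.38 in the combined list.

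Of the 542 combined X peaks, 233 overlapped a replicate 1 peak by at least 1 bp (43.0%, 95% Wilson interval 38.9 to 47.2), against 40.4% of all combined peaks. This is near the value for the whole list and inside the autosomal range of 28.6 to 44.1%. A total of 526 X peaks (97.0%) overlapped replicate 2, against 98.6% of all combined peaks. The combined and replicate 2 lists are in part the same peaks, so that share is no replicate comparison. No X peak overlapped replicate 1 alone (0 of 542, which allows a share of up to 0.554%, or 3 counts of the total), against 1 of all 3635 combined peaks. Another 16 X peaks (2.95%) overlapped neither, against 1.35% of all combined peaks. In the other direction, 237 of 241 replicate 1 X peaks overlapped replicate 2 (98.3%, interval 95.8 to 99.4), against 96.5% of all replicate 1 peaks. Of the replicate 2 X peaks, 41.8% overlapped replicate 1, against 40.0% of all.

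Which X peaks recurred followed their strength. The share found in replicate 1 was 98.5% in the strongest decile (64 of 65 X peaks), 77.4% in the third and 45.1% in the fourth, where q-values lay between 5.78e-08 and 6.67e-07. It was 1.69% in the weakest decile (1 of 59). Autosomal shares were 99.3% in the strongest decile, 75.9% in the third, 55.1% in the fourth and 2.63% in the weakest. X was above the autosomes in 5 of the 10 deciles and below in the other 5. The 233 X peaks found in both replicates had a median width of 543 bp and none was under 50 bp. The 293 found in replicate 2 alone had a median width of 286 bp and included 24 under 50 bp, and the 16 found in neither had a median of 135 bp. Over all combined peaks these classes had medians of 427, 228 and 138 bp, in the same order. Among them, 11 of 1468 found in both and 260 of 2117 found in replicate 2 alone were under 50 bp.

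**Figure D3:**
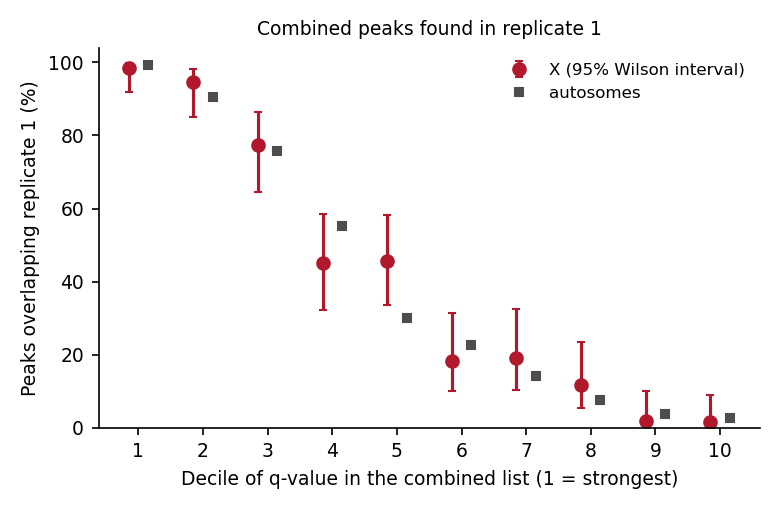
Share of combined peaks that overlap a replicate 1 peak (vertical axis, percent) by decile of q-value in the combined list (horizontal axis, 1 is the strongest), for X (red circles, 95% Wilson intervals) and the autosomes (grey squares). Both fall with strength, for X to 1.69% in the weakest decile, against 98.5% in the strongest.

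The strongest combined X peak with no replicate 1 counterpart was at 4138888 to 4140073. It spanned 1186 bp and ranked 335 in the combined list (q = 1.81e-14). The next 4 were at 1012528 to 1013227, 8155656 to 8156228, 12630502 to 12630960 and 8404161 to 8404694, with q-values between 4.84e-11 and 6.87e-10. Each of the 5 was a peak in replicate 2. In the opposite direction only 4 replicate 1 X peaks were missing from replicate 2. The strongest of them was at 293239 to 293626, with a q-value of 2.94e-06. The others were at 15598991 to 15599141, 5139569 to 5139580 and 4395443 to 4395717, with q-values of 1.53e-04, 1.55e-04 and 1.83e-04 close to the weakest X peak kept in that list (2.36e-04). The 5 strongest combined X peaks found in neither replicate lay at 396105 to 396296, 7323622 to 7323804, 3451762 to 3451781, 2516055 to 2516061 and 658967 to 659191. Their q-values began at 1.08e-04, and one of them was 7 bp wide.

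Matched X sites were ordered alike in the replicates. Across the 228 X peaks that overlapped one to one, the rank correlation of q (Spearman's rho) was 0.90, and it lay between 0.80 and 0.82 on the 5 autosomes. This is a description across peaks of the same pair of libraries, with no p-value. The rho of the widths was 0.86 on X, inside the autosomal range of 0.77 to 0.87. The median −log10 q of these X sites was 5.47 in replicate 1 and 9.04 in replicate 2. The q-value was smaller in replicate 2 at 225 of the 228 X pairs (98.7%), against 97.5% of all pairs. A q-value depends on depth, which is unknown, so differences in depth, in enrichment and in binding cannot be told apart here.

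X peaks of replicate 1 mostly sat inside their partners. At 181 of the 228 pairs (79.4%) the replicate 1 peak lay within the replicate 2 peak, compared with 74.9% of autosomal pairs. The share on X was inside the range of 72.9 to 80.1% over single autosomes. Replicate 2 peaks were wider at 211 X pairs (92.5%), against 89.5% of all pairs, and reached a median of 32.5 bp farther on the left and 27.5 bp on the right. Paired X peaks had median widths of 428 bp in replicate 1 and of 550 bp in replicate 2. The distance between paired centres had a median of 21 bp and was at most 298 bp on X. It was within 100 bp at 203 X pairs (89.0%), near the 87.4% of all pairs.

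**Figure D4:**
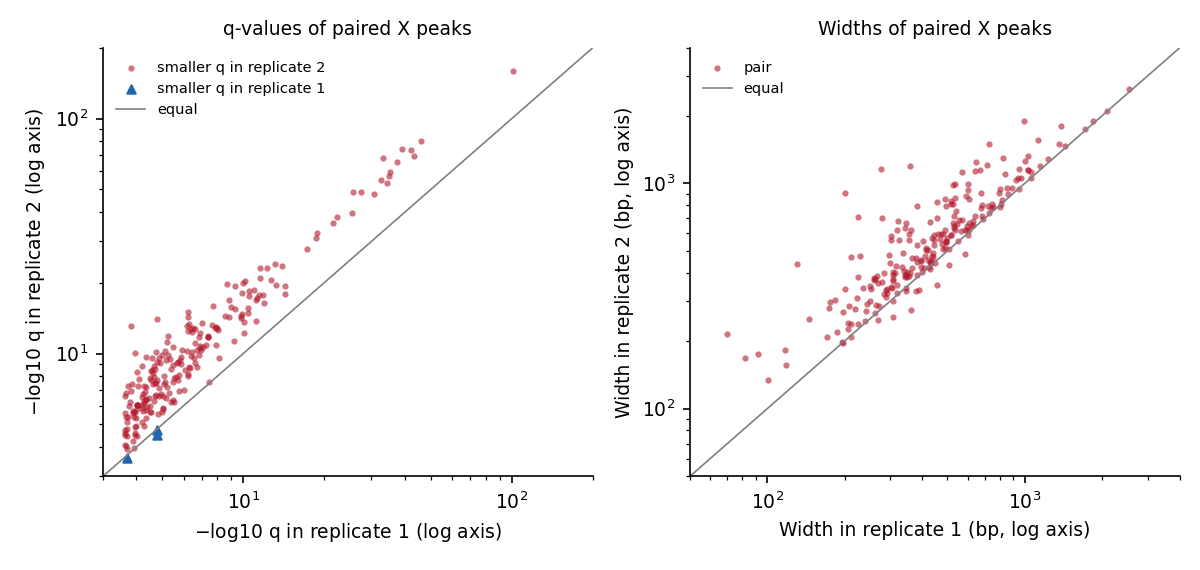
Replicate 2 (vertical axes) against replicate 1 (horizontal axes) for the 228 X peaks paired one to one, as −log10 q on the left and as width in bp on the right, all on log axes, with a line where the values are equal. Of the pairs, 225 lie above the line for q and 3 (blue triangles) below it, and 211 were wider in replicate 2.

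Only 3 X pairs had the smaller q-value in replicate 1, at 13225103 to 13225371, 12517931 to 12518193 and 5942021 to 5942604. The first 2 lay at percentiles 57.6 and 58.7 of replicate 1 and at 66.9 and 61.8 of replicate 2. The last lay near the weak end of each list, at 95.4 in replicate 1 and 92.7 in replicate 2. The first had q-values of 1.62e-05 in replicate 1 and 3.22e-05 in replicate 2. It was also the X pair that stood lowest in replicate 2 relative to its percentile in replicate 1, followed by the second and by the pair at 14708103 to 14708462. The widest departures lay on the other side. The replicate 1 peak at 14946811 to 14947086 spanned 276 bp and had q = 1.52e-04, among the weakest of its list. Its partner in replicate 2 spanned 1162 bp and had q = 8.16e-14. A second, at 421555 to 422014, reached q = 1.09e-04 in replicate 1 and q = 9.55e-11 in replicate 2. Another, at 7306377 to 7306753, had q-values of 1.86e-04 and 5.31e-08 in replicates 1 and 2. Placed by percentile of its own list, the first of these pairs was at 88.8 in replicate 1 and at 10.4 in replicate 2, and since the lists differ in length no change is read from that.

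Along X, peaks were denser towards the right end. The right one of 3 equal segments, from 11809667 to 17641052, held 227 combined peaks (41.9%, 95% Wilson interval 37.8 to 46.1). The central segment held 146 (26.9%, interval 23.4 to 30.8) and the left 169 (31.2%, interval 27.4 to 35.2). The order was similar in replicate 1, where 105 of 241 peaks were in the right segment (43.6%), 67 in the central (27.8%) and 69 in the left (28.6%). The central share lay below the autosomal range of 39.6 to 42.9% in the combined list and of 39.5 to 43.7% in replicate 1 (two-sided exact permutation test over chromosomes, p = 0.167 in each). Strength did not follow this order closely. Peaks of the strongest decile of the list made up 10.7% of the left, 12.3% of the central and 12.8% of the right segment in the combined list. In replicate 1 the shares were 15.9% on the left, 8.96% in the centre and 12.4% on the right, so the order differed between the lists. The share found in replicate 1 was 38.5% on the left, 43.8% in the centre and 45.8% on the right, with overlapping intervals.

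By stretches of 1 Mb, X held between 20 and 43 combined peaks, and between 6 and 24 replicate 1 peaks. The fullest by count was 13000001 to 14000000, with 43 combined peaks, 24 of them found in replicate 1. In the last stretch, beginning at 17000001, the peaks end at 17641052, so its 32 combined peaks lie in less than 1 Mb. The 5 stretches from 12000001 to 17000000 each held 33 or more. So did those beginning at 4000001, with 35, and at 6000001, with 34. In the combined list the emptiest was 10000001 to 11000000, with 20, where replicate 2 had 26 and replicate 1 had 10. In both replicate lists it was 9000001 to 10000000, with 6 peaks in replicate 1 and 23 in replicate 2. Peaks of the strongest decile were unevenly placed, with 7 in each of the stretches beginning at 1000001, 6000001 and 12000001 and 0 in the one beginning at 3000001. The stretch with the strongest site of all, 16000001 to 17000000, held 33 combined peaks of which 9 were found in replicate 1 (27.3%). Over the 18 stretches the share found in replicate 1 ran from 26.1 to 55.9%.

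**Figure D5:**
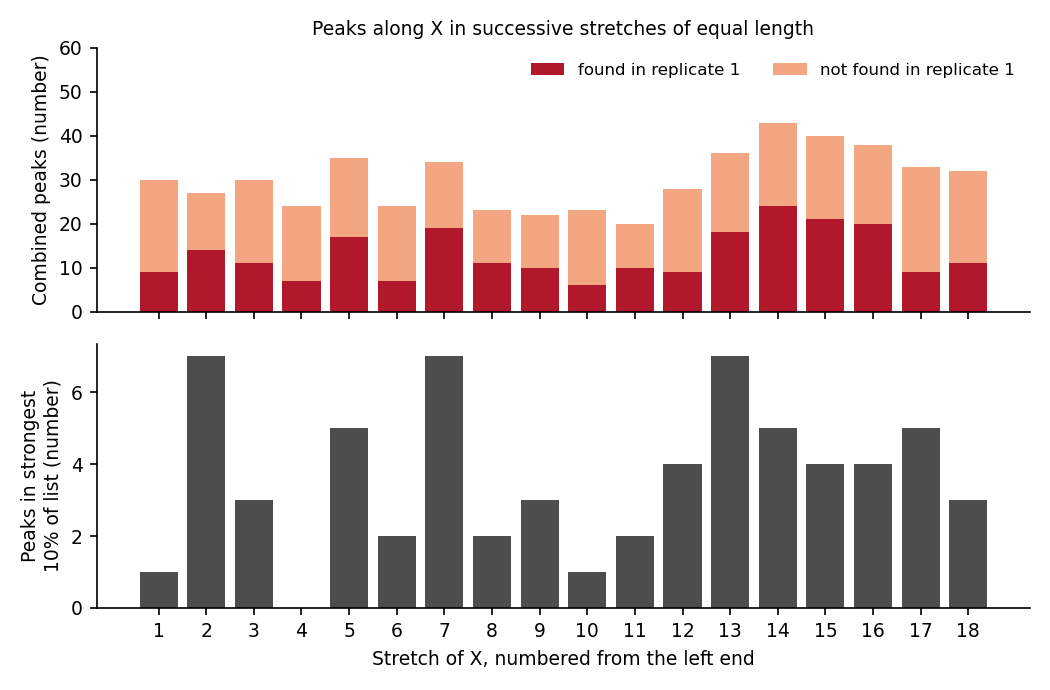
Combined X peaks in 18 successive stretches of 1 Mb, numbered from the left end (horizontal axis), with the number found and not found in replicate 1 above and the number in the strongest 10% of the list below (vertical axes). Stretch 14 holds the most peaks, 43, and stretch 11 the fewest, 20. The peaks of stretch 18 end at 17641052, so they lie in less than 1 Mb.

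X sites were less crowded than autosomal ones in the combined list. Another peak lay within 1000 bp of 18.1% of X peaks, against 24.1% of all combined peaks and below the autosomal range of 23.1 to 29.4%. In replicate 1 the share of 15.4% lay inside the autosomal range of 14.3 to 23.9%. Runs of 3 or more X peaks with gaps of at most 1000 bp numbered 8, as many as on chromosome I, and single autosomes had 8 to 24. None on X had more than 3 peaks, whereas the largest run on each autosome had 4 to 6. The X run covering the most bases was at 14559513 to 14564382, with 3454 bp in peaks, a smallest q-value of 2.81e-21 and all 3 peaks found in replicate 1. A pair of runs lay next to each other at 13348265 to 13351156 and 13353417 to 13356703, and all 6 of their peaks were found in replicate 1.

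When X was divided into 353 windows of 50 kb, 117 of them (33.1%) held no combined peak, the median window held 1 and the fullest 9. The most covered window of the combined list was 4100001 to 4150000, with 6849 bp in 7 combined peaks and 3653 bp in 6 replicate 1 peaks. It contains the strongest X peak that replicate 1 lacked. Next was 6700001 to 6750000, with 6335 bp in 7 combined peaks and 4415 bp in 6 replicate 1 peaks, which holds the site outlined differently in each list. That window was ahead of the first in both replicate lists, with 7060 bp against 6849 bp in replicate 2. The windows starting at 12850001, 15350001 and 14550001 held 5608, 5036 and 4903 bp in combined peaks. The longest stretches of X without a combined peak were 8836205 to 9146902, of 311 kb, 6805120 to 7065955, of 261 kb, and 1627506 to 1880732, of 253 kb. Each was also free of peak centres in both replicate lists. They were not extreme, since the longest peak-free stretch of an autosome lay between 229 and 453 kb.

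Of the 542 combined X peaks, 293 (54.1%, 95% Wilson interval 49.8 to 58.2) had the same start, end and q-value as a replicate 2 peak, against 72.1% of all combined peaks. The identity followed position. In 9 of the 18 stretches of 1 Mb all combined peaks matched replicate 2 exactly, and in the other 9 at most 6.67% were. In 7 of these 9 changed stretches no paired peak was wider in the combined list, and in 2, at 1 to 1000000 and 3000001 to 4000000, none was narrower. The median difference, combined minus replicate 2, lay between −13 and 20 bp. All 30 replicate 2 X peaks without a combined counterpart, and all 16 combined X peaks without a replicate 2 counterpart, lay in the changed stretches. Of the replicate 2 X peaks 94.6% overlapped a combined peak, against 97.4% of all replicate 2 peaks. The sources used here do not say how the combined list was made.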

How the data were processed

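Peaks called in 2 ChIP samples of GFP-tagged NHR-76 were analysed. The 2 input samples have labels but no peak list here. Per the file headers, coordinates are in build WormBase WS180. PeakSeq is the caller that the deposited lines name, and the authors deposited a q-value for each peak. Aligner, caller version, q cut-off and use of the inputs: not given in the sources used here. Samples were grouped by title.

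X peaks were selected by chromosome name, ranked by q-value within each list, and compared between lists by an overlap of at least 1 bp. Pairs called one to one overlapped a single peak in each direction. Spans run from the first to the last peak of any list. Intervals are 95% Wilson intervals for shares (a count of 0 is given the limit of 3 counts) and binomial order-statistic intervals for medians, which treat peaks as independent. Differences between X and the autosomes were tested with chromosomes as units (two-sided exact permutation test, 6 chromosomes). With a single list per replicate no test over samples was possible. Overlap, pairing and merging were tested on simulated data with planted answers.

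Peaks named in the text are, on X, the 20 strongest found in both replicates, the 5 strongest without replicate 1, the replicate 1 peaks without replicate 2, the 5 widest, the 5 strongest found in neither, the 3 pairs at each end of the shift in list percentile, the 3 longest gaps and the 5 windows of 50 kb with the most bases in combined peaks. The pairs with the smaller q in replicate 1, the runs of peaks and the 1 Mb stretches were singled out after their values were seen. Members and rules were chosen with earlier results of these data known. The software was scipy 1.17.1 and pandas 2.3.3 for statistics, matplotlib 3.10.9 for figures, and numpy 2.4.6 under Python 3.11.15.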

Additional observations from a re-analysis of the deposited data

How the results depend on the processing

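Of 69 alternative values for 13 results, 47 stayed within the interval of the value reported (or within 1.5 times, for peak counts). Another 22 moved and 0 changed sign. Shares, counts and widths cannot be negative, so only the width excess over the autosomes and the rank correlation of q could change sign. With lists of equal length, which removes weak peaks, 79.0% of combined X peaks overlapped replicate 1, 80.1% of replicate 1 X peaks overlapped replicate 2 and 79.3% of replicate 2 X peaks overlapped replicate 1. With centres within 100 bp the same shares were 37.6%, 84.2% and 36.6%. With a reciprocal overlap of 50%, 89.6% of replicate 1 X peaks overlapped replicate 2. In the better-scoring 50% of each list 98.9% of combined X peaks overlapped replicate 2. The causes of these last shifts were not tested. The shares of X peaks under these settings and those below do not set X apart from the autosomes. They were computed for X alone, except where a share of all peaks is given.

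Taking each replicate list alone, the number of X peaks was 241 to 555, their median width 368 to 429 bp and its excess over the autosomes 82 to 106 bp. Among combined peaks found in both replicates there were 233 X peaks, with a median width of 543 bp and an excess of 134 bp. Counting only neighbours also found in both, 14.6% of these X peaks had one within 1000 bp. Counting every combined peak as a neighbour, 25.3% did, against 30.4% of all combined peaks found in both. The better-scoring 50% held 283 X peaks, with a median width of 534 bp and an excess of 128 bp. The second setting removes weak peaks by construction, and the X peaks left out of the first had median widths of 286 bp (replicate 2 alone) and 135 bp (neither). Merging peaks under 500 bp apart put a neighbour within 1000 bp of 12.0% of X peaks, and a limit of 2000 bp put one near 31.5%. The middle 3 of 5 segments held 55.5% of X peaks. With both ends within 10 bp, 78.2% of combined X peaks matched replicate 2. The share of X among the strongest 10% of the list was 17.9%, and 17.9 to 19.1% in each replicate list alone.

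No paired analysis was possible because the inputs that share the replicate numbers have no peak list here. Depth is unknown and limits any reading of list length or of peaks found in a single replicate. The combined and replicate 2 lists share peaks, so their agreement is no check.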
